A study of Mus musculus with 18 samples.

Results

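The genes described here are 10 genes of myoblast fusion and cell adhesion, read from a count table of 55450 gene IDs: Mymk, Mymx, Cdh15, Cdh2, Ncam1, Jam2, Jam3, Dysf, Myof and Cdon. They were chosen by name, with earlier results of these data known. All 10 had counts in every library, and all 10 passed the filter on low counts. The cells were C2C12, an established mouse myoblast line that fuses into multinucleated myotubes when serum is lowered. In each of 3 lines, polyA RNA was sequenced from growing myoblasts and from myotubes at day 3 of differentiation, with 3 libraries in each of the 6 groups. Control cells were a sorted population transfected with the pX458 Cas9 vector alone. The overexpressor (2-4) and the knockout (2-7) were each 1 clone, grown from a single sorted cell after CRISPR-Cas9 with pairs of guides against the proximal promoter of Meg3, the first gene of the noncoding RNA cluster in the Dlk1-Dio3 region. A difference between a clone and the control population therefore cannot be told apart from a difference between clones of this line. The labels do not say whether the 3 libraries of a group came from separate cultures, so p-values measure the spread between these libraries.

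Skeletal muscle fibres form when mononucleated myoblasts recognise each other, adhere and merge their membranes. Cadherins, immunoglobulin-type adhesion molecules and the receptor Cdon bring the cells together and signal from the contact site. Myomaker (Mymk) and the micropeptide myomixer (Mymx, also called myomerger or minion) are muscle-specific proteins that act on the membranes themselves, Myomaker at the hemifusion step and myomixer at the opening of the fusion pore. Dysferlin (Dysf) and myoferlin (Myof) are large calcium-binding membrane proteins of vesicle trafficking, best known for membrane repair in muscle fibres and for myoblast fusion, respectively. Mymk and Mymx are targets of the myogenic factors MyoD and myogenin.

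Mymx is among the smallest protein-coding genes of muscle, and its open reading frame is shown because Mymk and Mymx carry the widest range of levels among the 10 genes. In the GENCODE M21 annotation (GRCm38), Mymx lies on chromosome 17 from 45600971 to 45602102 on the minus strand. The coding sequence of transcripts Mymx-201, Mymx-203 and Mymx-204 lies in 1 exon, chr17:45601417-45601671, and runs for 84 codons before the stop. Its 255 bases follow with the start and stop codons in capitals.
Mymx: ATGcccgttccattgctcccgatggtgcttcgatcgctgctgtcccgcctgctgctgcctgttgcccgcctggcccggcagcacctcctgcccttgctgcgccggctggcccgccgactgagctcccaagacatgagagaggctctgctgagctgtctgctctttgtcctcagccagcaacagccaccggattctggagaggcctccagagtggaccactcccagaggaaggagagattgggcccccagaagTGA
The remaining transcript, Mymx-202, is annotated with 108 codons and ends at the same stop codon position, 45601417. Mymk, on chromosome 2 from 27061636 to 27072179, is annotated with a main coding sequence of 221 codons.

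Library totals ranged from 41544358 to 79140702 counts. Meg3 had 0 counts in all control and knockout libraries and 5222 to 7763 counts in the overexpressor libraries, so the label of the knockout could not be checked against that gene. The 8 muscle markers (Myod1, Myf5, Myog, Des, Myh3, Acta1, Tnnt3 and Ckm) were over 1 CPM (the count scaled to a common library size by edgeR's cpm function) in every group. Their summed level was 1310 to 1520 CPM in control, 2598 to 3292 CPM in overexpressor and 11531 to 14383 CPM in knockout myoblasts, and 14812 to 15203, 24776 to 27773 and 35318 to 43043 CPM in the respective myotubes. Summed markers of several other cell types moved with the groups as well. The 5 fibroblast markers summed to 788 to 839 CPM in control, 42.0 to 45.8 CPM in overexpressor and 388 to 613 CPM in knockout myoblasts. Their sums in the respective myotubes were 5776 to 6835, 319 to 495 and 1366 to 1599 CPM. Col1a1 carried most of these differences, at 779, 9.85 and 429 CPM in the myoblasts. Dcn went the other way there, at 1.88, 12.8 and 5.30 CPM, but was lowest in overexpressor myotubes. Pdgfra was higher in knockout than in control myoblasts, at 36.9 against 30.045 CPM, and lower in overexpressor myoblasts. Lum and Thy1 were at most 0.126 CPM on average in any myoblast group. Tubb3 led the 5 nerve and Schwann cell markers, which summed to 177 to 205 CPM in overexpressor myoblasts against 40.8 to 49.985 CPM in control and 4.56 to 4.86 CPM in knockout myoblasts, while Sox10 was at 0 counts throughout. The 5 osteoblast markers summed to 95.6 to 103 CPM in control, 40.0 to 45.9 CPM in overexpressor and 54.2 to 57.7 CPM in knockout myoblasts, and to 71.5 to 74.4, 26.2 to 28.2 and 11.4 to 15.2 CPM in myotubes. Runx2 was the only 1 of them over 1 CPM on average in any group, at 99.9, 42.3 and 56.0 CPM in the myoblasts. The 5 adipocyte markers summed to 49.3 to 51.6, 29.9 to 32.3 and 46.3 to 48.2 CPM in the same myoblasts and to 38.7 to 42.8, 12.7 to 16.1 and 24.7 to 26.6 CPM in myotubes. Of these only Cebpa and Pparg were over 1 CPM on average in any group. In the myoblasts Cebpa was at 38.55, 12.0 and 40.5 CPM, and Pparg went the other way, at 11.4, 19.3 and 6.12 CPM. The 5 endothelial markers summed to at most 0.669 CPM and the 5 blood cell markers to at most 2.26 CPM in any library. The part of these marker differences in the results that follow was not tested, and in bulk RNA fewer cells of a type and less RNA per cell cannot be told apart.

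Levels of different genes are compared per length, as CPM per kilobase of exon (CPM per kb). In control myoblasts the cadherin Cdh15 stood highest at 87.5 ± 4.75 CPM per kb (SD, n = 3), followed by Cdon at 47.0 ± 0.594, Ncam1 at 40.8 ± 1.30 and Myof at 39.6 ± 0.681 CPM per kb. Mymx, at 5.22 ± 0.810 CPM per kb, and Dysf, at 3.69 ± 0.141 CPM per kb, were the lowest. Cdh15 was also highest in overexpressor myoblasts, at 181 ± 21.9 CPM per kb. Mymk was highest in knockout myoblasts, at 444 ± 33.2 CPM per kb, and in all 3 myotube groups, at 745 ± 66.6, 851 ± 80.2 and 1111 ± 152 CPM per kb in control, overexpressor and knockout. Mymx came second in all 3 myotube groups, at 153 ± 17.9, 205 ± 14.4 and 224 ± 19.8 CPM per kb. The lowest places in myotubes belonged to the junctional adhesion molecules, Jam3 in control (6.31 ± 0.375 CPM per kb) and overexpressor (9.87 ± 0.0858 CPM per kb) and Jam2 in knockout myotubes (7.18 ± 0.684 CPM per kb). Of 54 neighbouring pairs of genes in the 6 orders, 7 had overlapping libraries. Ncam1 and Myof in control myoblasts were 1 such pair. In overexpressor myoblasts the libraries of Mymk overlapped those of Myof and those of Cdon, while every Myof library lay above every Cdon library. Per coding length in place of exon length, 29 of the 60 places in these orders stayed the same. The top places of Cdh15 and Mymk and the last place of Dysf in myoblasts and of Jam3 in control myotubes did, but in overexpressor and knockout myotubes Dysf came last per coding length, with Jam3 at place 9 in the overexpressor and Jam2 at place 8 in the knockout.

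**Figure D1:**
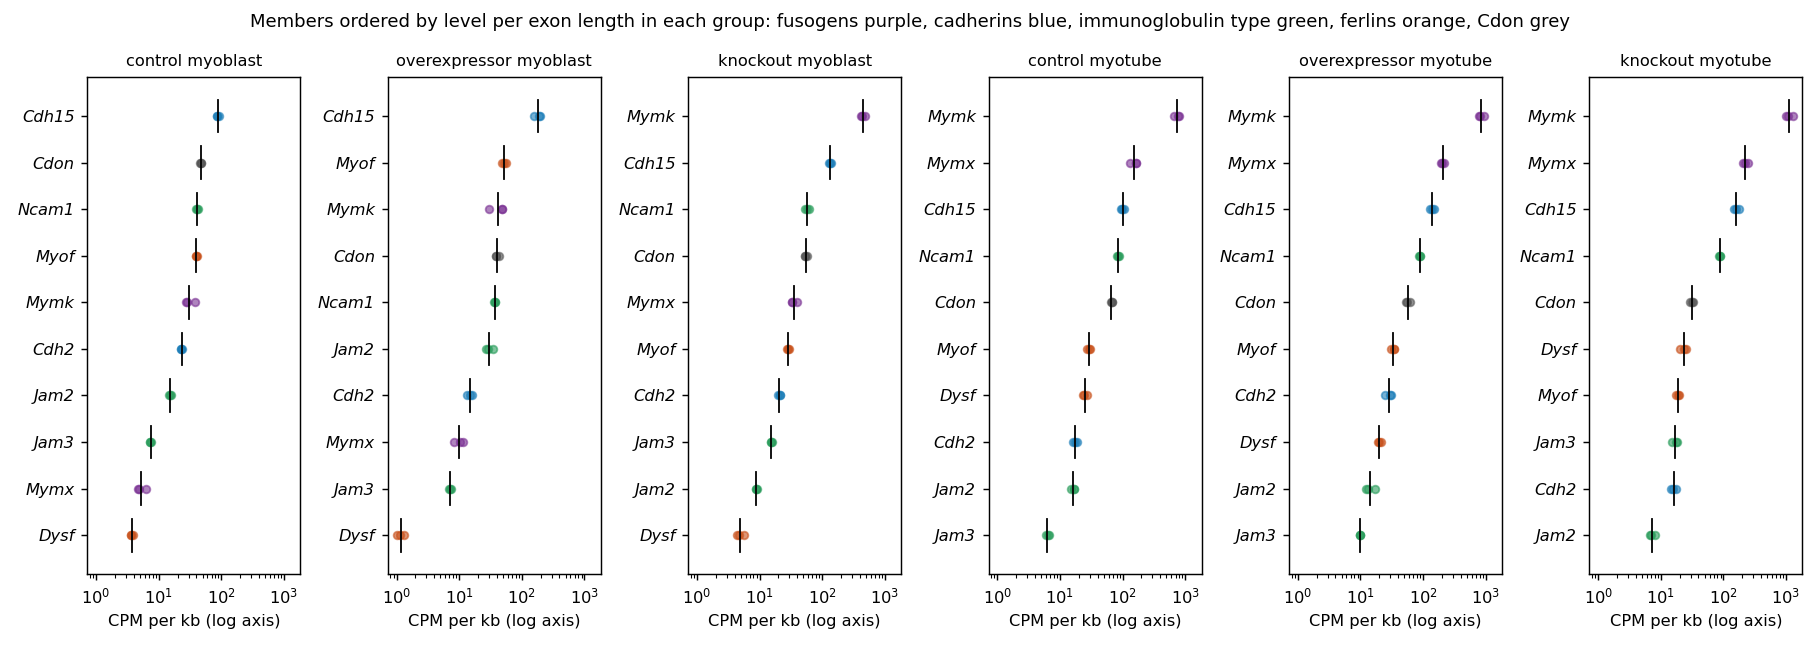
The 10 genes ordered by mean level in each of the 6 groups (horizontal log axis, CPM per kb of exon; dots are the 3 libraries, black bars their mean, colours the kind of gene). Cdh15 heads the order in control and overexpressor myoblasts, and Mymk heads it in knockout myoblasts and in the 3 myotube groups.

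Mymk had the highest fold change of the 10 genes between knockout and control myoblasts. Its libraries stood at 42.5, 56.4 and 40.5 CPM in control myoblasts, at 73.9, 45.7 and 73.0 CPM in overexpressor myoblasts and at 636, 728 and 648 CPM in knockout myoblasts. The knockout libraries lay far above the others, while 1 overexpressor library fell within the control range. In knockout myoblasts Mymk was 14.4-fold above control (log2 fold change 3.85 ± 0.19 SE, adjusted p = 8.24e-11). The overexpressor difference of 0.47 ± 0.17 passed the threshold of 0.05 (adjusted p = 0.0377). It no longer did when control replicate A (0.127), control replicate C (0.146), overexpressor replicate A (0.159) or overexpressor replicate C (0.15) was left out, nor with no filter on low counts (0.115) or with only these 2 groups in the fit (0.155). In myotubes the libraries read 1206, 1159 and 1013 CPM in control, 1421, 1247 and 1188 CPM in the overexpressor and 1497, 1602 and 1936 CPM in the knockout. Knockout myotubes were 1.49-fold above control (adjusted p = 0.00594), and the overexpressor and control libraries overlapped (log2 fold change 0.19, 95% interval -0.16 to 0.54, adjusted p = 0.342, but 0.042 with only these 2 groups in the fit). From myoblasts to myotubes Mymk rose 24.2-fold in control (log2 4.60 ± 0.19, adjusted p = 6.2e-12), by a log2 fold change of 4.32 ± 0.19 in the overexpressor (adjusted p = 1.11e-11) and 2.50-fold in the knockout (log2 1.32 ± 0.17, adjusted p = 4.99e-06). The rise in the knockout was smaller than that in control by a log2 difference of -3.27 ± 0.24 (adjusted p = 2.25e-08). For the overexpressor the difference in response was -0.27 (95% interval -0.78 to 0.23, adjusted p = 0.399).

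Mymx had the same order of groups at a lower level. Control myoblasts held 4.87, 6.33 and 4.90 CPM, overexpressor myoblasts 10.7, 8.61 and 11.8 CPM and knockout myoblasts 34.4, 40.7 and 34.0 CPM, with no overlap between the 3 lines. Mymx was thus 1.93-fold above control in the overexpressor (log2 0.95 ± 0.13, adjusted p = 1.69e-05) and 6.77-fold above it in the knockout (log2 2.76 ± 0.13, adjusted p = 1.15e-11). Myotubes held 168, 168 and 136 CPM in control, 226, 209 and 196 CPM in the overexpressor and 213, 225 and 253 CPM in the knockout. Both clones stayed above control there, by 1.34-fold (adjusted p = 0.00489) and 1.47-fold (adjusted p = 0.000473), while the clones' own libraries overlapped. Its rise with differentiation was 29.2-fold in control (log2 4.87 ± 0.14, adjusted p = 7.02e-15), 20.3-fold in the overexpressor (log2 4.34 ± 0.14, adjusted p = 2.23e-14) and 6.33-fold in the knockout (log2 2.66 ± 0.13, adjusted p = 1.27e-11). The knockout's response was smaller than control's by a log2 difference of -2.21 ± 0.18 (adjusted p = 1.56e-08). The overexpressor's difference of -0.52 ± 0.18 (adjusted p = 0.0262) no longer passed once a single library out of these 7 had been removed: control myoblasts A (0.0789) and C (0.0741), overexpressor myoblasts A (0.0595) and C (0.0814), control myotubes A (0.0654) and B (0.063), and overexpressor myotube replicate C (0.14). DESeq2's size factors ended it as well (0.0951).

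Myogenin (Myog) and MyoD (Myod1), which activate both fusion genes, differed between the lines too. Myog stood at 105 ± 18.6 CPM in control, 297 ± 62.5 CPM in overexpressor and 1157 ± 84.9 CPM in knockout myoblasts, and at 1732 ± 59.6, 1855 ± 178 and 2532 ± 178 CPM in the respective myotubes (SD, n = 3). Myod1 ranged less, from 208 ± 13.5 CPM in control myoblasts to 385 ± 35.2 CPM in knockout myotubes. Whether these levels bear on Mymk and Mymx was not tested.

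**Figure D2:**
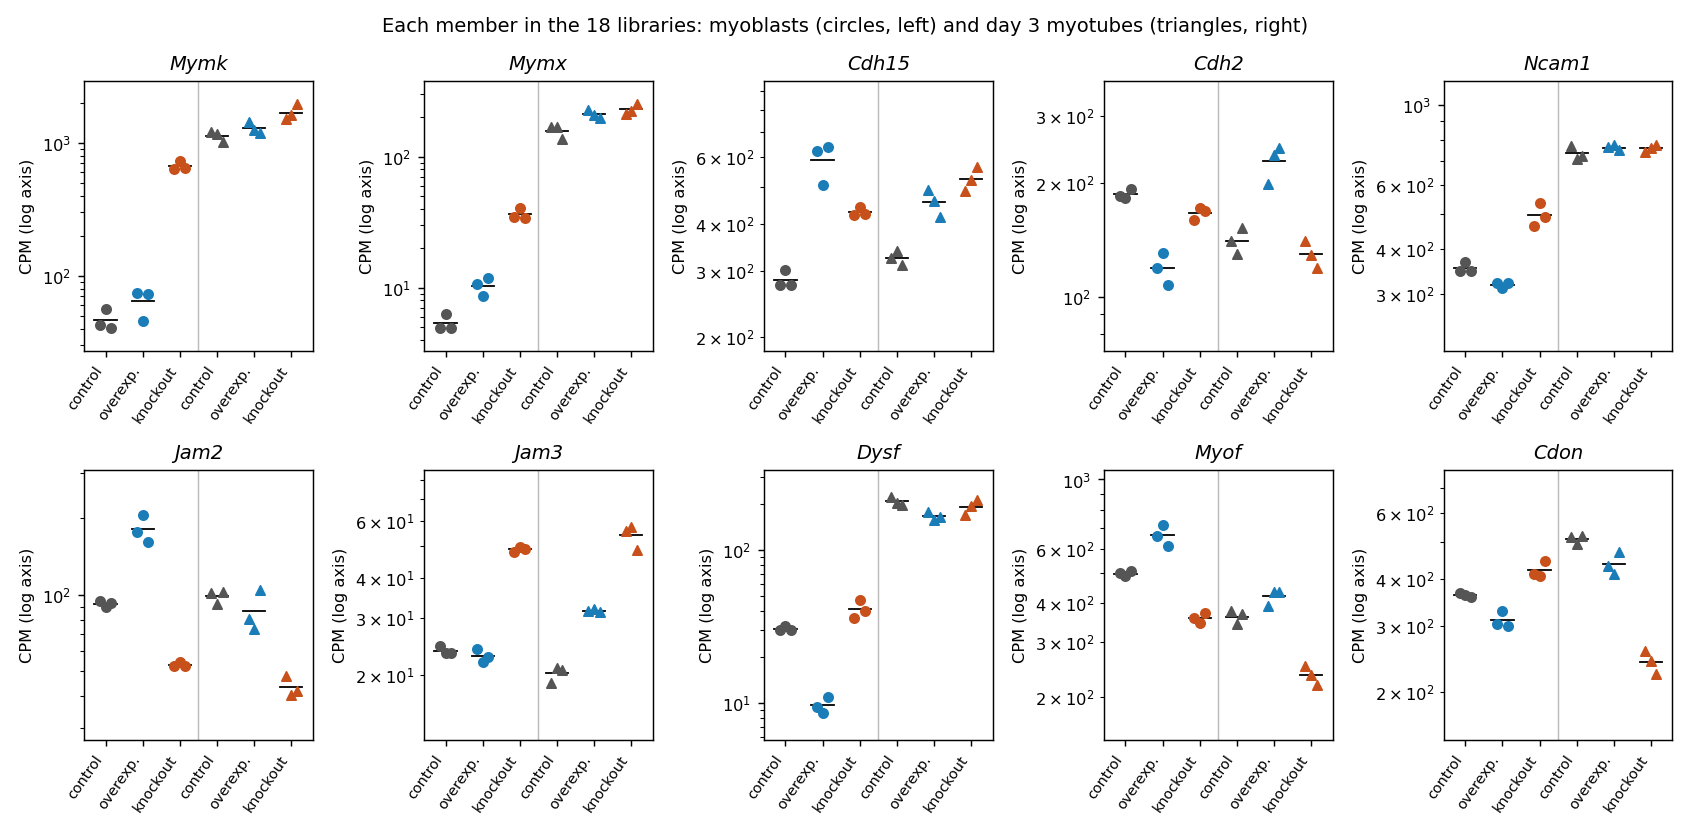
Level of each gene in every library (vertical log axis in CPM, scaled by library; grey control, blue overexpressor, orange knockout; circles myoblasts, triangles day 3 myotubes; black bars are means of 3 libraries). Mymk and Mymx in knockout myoblasts lie between the other myoblasts and the myotubes, and Dysf is lowest in overexpressor myoblasts.

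Cdh15 encodes M-cadherin, the cadherin most particular to the myogenic lineage. It was higher in both clones than in control at both stages. Myoblast libraries read 276, 302 and 275 CPM in control, 623, 508 and 637 CPM in the overexpressor and 423, 444 and 426 CPM in the knockout, and the 3 lines did not overlap. Cdh15 was 2.07-fold above control in overexpressor (log2 1.05 ± 0.08, adjusted p = 1.03e-08) and 1.51-fold above it in knockout myoblasts (log2 0.60 ± 0.08, adjusted p = 8.08e-06). In myotubes it was at 324, 339 and 312 CPM in control, 492, 459 and 418 CPM in the overexpressor and 488, 523 and 567 CPM in the knockout. The differences from control were 1.40-fold (adjusted p = 6.31e-05) and 1.62-fold (adjusted p = 9.01e-07). With differentiation Cdh15 fell in the overexpressor (log2 -0.37 ± 0.08, adjusted p = 0.000831) and rose in the knockout (log2 0.29 ± 0.08, adjusted p = 0.00596, but 0.196 when scaled by library totals). In control its change was 0.19 (95% interval 0.02 to 0.37, adjusted p = 0.0544, and 0.0415 without control myoblast replicate B). The overexpressor's response was lower than control's by a log2 difference of -0.56 ± 0.12 (adjusted p = 0.000891), and for the knockout the difference was 0.10 (95% interval -0.15 to 0.34, adjusted p = 0.528).

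Cdh2 encodes N-cadherin, a cadherin of mesenchymal and neural cells that myoblasts share. It took opposite courses in the overexpressor and in the other lines. Its myoblast libraries were at 184, 182 and 193 CPM in control, 119, 130 and 108 CPM in the overexpressor and 160, 171 and 168 CPM in the knockout. All 3 overexpressor libraries lay below the others, 1.57-fold below control on average (log2 -0.65 ± 0.09, adjusted p = 7.88e-06). Knockout myoblasts gave -0.16 (95% interval -0.35 to 0.02, adjusted p = 0.123, but 0.000588 with only these 2 groups in the fit). In myotubes the overexpressor became the highest line, with 199, 236 and 247 CPM against 141, 130 and 151 CPM in control and 140, 129 and 119 CPM in the knockout. This was 1.62-fold above control (log2 0.69 ± 0.09, adjusted p = 1.8e-06), and the knockout did not separate from control (-0.12, 95% interval -0.30 to 0.06, adjusted p = 0.237). Cdh2 rose with differentiation in the overexpressor (log2 0.93 ± 0.09, adjusted p = 2.87e-08) and fell in control (log2 -0.41 ± 0.09, adjusted p = 0.000499) and in the knockout (log2 -0.36 ± 0.09, adjusted p = 0.00147). The difference between the overexpressor's and control's responses was 1.34 ± 0.12 (adjusted p = 8.87e-08), and that for the knockout was 0.05 (95% interval -0.21 to 0.30, adjusted p = 0.784).

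Ncam1 encodes the neural cell adhesion molecule, an immunoglobulin-type protein of nerve and muscle surfaces. Its libraries lay at 346, 367 and 348 CPM in control, 321, 312 and 322 CPM in overexpressor and 462, 536 and 489 CPM in knockout myoblasts. The knockout exceeded control 1.40-fold (log2 0.49 ± 0.06, adjusted p = 1.01e-06). The overexpressor lay 1.11-fold below it (log2 -0.15 ± 0.06, adjusted p = 0.0431), a call that leaving out any 1 of the 6 libraries ended: control replicate A (0.0595), B (0.16) or C (0.0676) or overexpressor replicate A (0.0772), B (0.112) or C (0.0742). DESeq2's size factors gave 0.0811. The myotube groups all reached the same range, with 770, 710 and 722 CPM in control, 763, 773 and 750 CPM in the overexpressor and 739, 758 and 776 CPM in the knockout. There the overexpressor gave 0.05 (95% interval -0.07 to 0.17, adjusted p = 0.445, but 0.042 with DESeq2's size factors and 0.038 without overexpressor replicate C), and the knockout 0.05 (95% interval -0.07 to 0.17, adjusted p = 0.489, but 0.0246 with DESeq2's size factors). Ncam1 rose with differentiation 2.08-fold in control, 2.39-fold in the overexpressor and 1.53-fold in the knockout (adjusted p = 1.76e-11, 1.57e-12 and 4.82e-08). The knockout's rise was smaller than control's by -0.44 ± 0.08 on the log2 scale (adjusted p = 0.000218). For the overexpressor the difference was 0.21 (95% interval 0.03 to 0.38, adjusted p = 0.0535). It passed without control myotube replicate A (0.0359) or overexpressor myotube replicate C (0.00592), and was larger and passed with DESeq2's size factors (0.32, adjusted p = 0.0119), library totals (0.39, adjusted p = 0.00031) and DESeq2 (0.32, adjusted p = 0.00254). An antisense transcript, Gm11149, overlaps 417 exon bases of Ncam1, and the strand setting of the counting is not given in the sources used here.

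Jam2 and Jam3, the junctional adhesion molecules B and C, are immunoglobulin-type proteins that bind each other across cells, and they moved in opposite directions in the knockout. Jam2 myoblast libraries were at 94.3, 89.7 and 92.8 CPM in control, 177, 207 and 161 CPM in the overexpressor and 52.7, 54.4 and 52.5 CPM in the knockout. Against control, Jam2 was 1.97-fold higher in the overexpressor (log2 0.98 ± 0.11, adjusted p = 9.93e-07) and 1.73-fold lower in the knockout (log2 -0.79 ± 0.11, adjusted p = 7.91e-06). Jam3 libraries stood at 24.5, 23.3 and 23.4 CPM in control, 24.1, 21.9 and 22.7 CPM in overexpressor and 47.9, 49.8 and 49.2 CPM in knockout myoblasts. Jam3 was therefore 2.06-fold above control in the knockout (log2 1.05 ± 0.07, adjusted p = 6.84e-10) and not separated from it in the overexpressor (-0.05, 95% interval -0.20 to 0.10, adjusted p = 0.607).

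In myotubes the knockout kept this opposition of the junctional adhesion molecules. Jam2 was at 102, 91.8 and 102 CPM in control, 80.1, 73.7 and 105 CPM in the overexpressor and 48.1, 40.3 and 41.8 CPM in the knockout, 2.27-fold below control (log2 -1.19 ± 0.11, adjusted p = 3.72e-08). Overexpressor replicate C lay above every control library, and the overexpressor difference was -0.20 (95% interval -0.43 to 0.03, adjusted p = 0.137, and 0.0214 without that replicate). Jam3 reached 18.8, 21.03 and 20.7 CPM in control, 31.6, 31.9 and 31.3 CPM in the overexpressor and 56.0, 57.6 and 48.8 CPM in the knockout. It exceeded control 1.57-fold in the overexpressor (log2 0.65 ± 0.07, adjusted p = 3.02e-07) and 2.68-fold in the knockout (log2 1.42 ± 0.07, adjusted p = 6.73e-12). The antisense transcript Gm48796 overlaps 1159 exon bases of Jam3, so its counts are uncertain in the same way as those of Ncam1.

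The change of the junctional adhesion molecules with differentiation differed between lines. Jam2 fell 2.11-fold in the overexpressor (log2 -1.07 ± 0.11, adjusted p = 1.04e-07), where control gave 0.10 (95% interval -0.13 to 0.33, adjusted p = 0.456), and the difference in response was -1.17 ± 0.16 (adjusted p = 7.91e-06). In the knockout Jam2 fell by 0.29 on the log2 scale (adjusted p = 0.0276). That call was lost without knockout myoblast replicate A (0.0504), B (0.0695) or C (0.05) or knockout myotube replicate B (0.109) or C (0.0858), and with DESeq2's size factors (0.148). The knockout's difference in response for Jam2 was -0.39 ± 0.16 (adjusted p = 0.0457). This call was lost without any 1 of 10 of the 12 libraries involved, at adjusted p of 0.0612 to 0.111. The exceptions were control myotube replicate B and knockout myotube replicate A. DESeq2's size factors (0.172), library totals (0.113) and DESeq2 (0.216) ended it as well. Jam3 fell in control by 0.23 on the log2 scale (adjusted p = 0.00802, and 0.0508 without control myotube replicate A) and rose in the overexpressor by 0.47 ± 0.07 (adjusted p = 1.32e-05). In the knockout its change was 0.14 (95% interval 0.00 to 0.29, adjusted p = 0.0757, but 0.00356 with DESeq2's size factors and 0.012 without knockout myotube replicate C). The Jam3 response was higher than control's in the overexpressor by 0.70 ± 0.10 (adjusted p = 1.83e-05) and in the knockout by 0.38 ± 0.10 (adjusted p = 0.00428).

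The ferlins Dysf and Myof are paralogs, and they moved in opposite directions with differentiation in all 3 lines. Dysf libraries lay at 30.1, 32.1 and 30.1 CPM in control, 9.42, 8.63 and 11.02 CPM in overexpressor and 36.2, 47.4 and 39.8 CPM in knockout myoblasts. The overexpressor stood 3.18-fold below control (log2 -1.67 ± 0.11, adjusted p = 7.1e-10) and the knockout 1.34-fold above it (log2 0.42 ± 0.10, adjusted p = 0.00222), with no overlap between lines. Myotubes held 223, 204 and 197 CPM in control, 179, 156 and 164 CPM in the overexpressor and 170, 194 and 212 CPM in the knockout. The overexpressor difference there was -0.32 ± 0.10 (adjusted p = 0.0106). It failed with DESeq2's size factors (0.0974) and without control replicate A (0.0563) or overexpressor replicate C (0.124). For the knockout it was -0.11 (95% interval -0.33 to 0.10, adjusted p = 0.325). Dysf rose 6.76-fold in control, 17.2-fold in the overexpressor and 4.67-fold in the knockout (adjusted p = 1.59e-13, 3.46e-15 and 1.02e-11). Relative to control the overexpressor's response was larger by 1.34 ± 0.15 (adjusted p = 8.66e-07) and the knockout's smaller by -0.53 ± 0.14 on the log2 scale (adjusted p = 0.0053, but 0.0518 with DESeq2). Antisense transcripts Gm15475 and Gm33024 overlap 352 and 105 exon bases of Dysf.

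Myof libraries stood at 500, 489 and 506 CPM in control, 656, 717 and 611 CPM in overexpressor and 359, 347 and 373 CPM in knockout myoblasts. Myof was 1.33-fold above control in the overexpressor (log2 0.41 ± 0.07, adjusted p = 0.000102) and 1.39-fold below it in the knockout (log2 -0.47 ± 0.07, adjusted p = 1.38e-05), the reverse of Dysf in both clones. In myotubes it was at 378, 342 and 368 CPM in control, 392, 434 and 436 CPM in the overexpressor and 251, 236 and 218 CPM in the knockout. The knockout lay 1.54-fold below control (log2 -0.63 ± 0.07, adjusted p = 2.99e-07) and the overexpressor 1.16-fold above it (log2 0.22 ± 0.07, adjusted p = 0.0127, and 0.0686 without control replicate B). Myof fell with differentiation by 0.46 on the log2 scale in control (adjusted p = 1.33e-05), by 0.65 in the overexpressor (adjusted p = 1.58e-07) and by 0.61 in the knockout (adjusted p = 5.11e-07). These falls were not shown to differ from that of control (overexpressor difference -0.19, 95% interval -0.40 to 0.01, adjusted p = 0.134, and knockout difference -0.15, 95% interval -0.36 to 0.05, adjusted p = 0.2).

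Because the paralogs moved apart, their upstream regions are shown, from RefSeq's promoter windows (GRCm38.p6), which cover 4 of the 10 genes. Bases from the windows' upstream part that lie outside annotated exons of the gene are printed in the direction of transcription, with the letters CCGCCC, on either strand, in capitals. Dysf has windows at 2 starts on chromosome 6, plus strand, and Myof 1 on chromosome 19, minus strand.
Dysf, chr6:84008348-84008589: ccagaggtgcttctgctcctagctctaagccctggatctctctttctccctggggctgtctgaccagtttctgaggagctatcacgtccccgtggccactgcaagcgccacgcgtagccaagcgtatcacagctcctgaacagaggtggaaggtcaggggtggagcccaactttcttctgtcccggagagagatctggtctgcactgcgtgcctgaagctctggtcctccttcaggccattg
Dysf, chr6:84019136-84019384: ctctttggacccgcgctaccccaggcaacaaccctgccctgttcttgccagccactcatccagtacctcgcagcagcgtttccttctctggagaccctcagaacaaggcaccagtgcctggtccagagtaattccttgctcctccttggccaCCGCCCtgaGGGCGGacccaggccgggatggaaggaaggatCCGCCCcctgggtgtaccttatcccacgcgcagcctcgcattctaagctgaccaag
Myof, chr19:38043578-38043827: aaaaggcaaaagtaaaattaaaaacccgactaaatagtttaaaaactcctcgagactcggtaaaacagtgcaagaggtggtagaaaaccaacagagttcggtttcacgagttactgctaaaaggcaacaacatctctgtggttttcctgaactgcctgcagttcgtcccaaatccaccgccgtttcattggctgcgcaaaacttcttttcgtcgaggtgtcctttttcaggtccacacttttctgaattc
The GC content of the 250 bases upstream was 60% and 61.2% in the Dysf windows and 42.8% in the Myof window, against a median of 52.4% over 32851 windows of all genes. The second Dysf window holds CCGCCC 3 times, and 32.7% of all windows of this length hold it at least once. The E-box letters CANNTG, which MyoD and myogenin bind among many other factors, were searched on both strands and were in none of these 3 windows and in 66.2% of all windows. A MEF2 site was in none of the 3 and in 0.508% of all. A match describes letters in a window and not a bound site.

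Cdon encodes a receptor of the immunoglobulin and fibronectin type III family that binds cadherins at contact sites and signals to p38 MAP kinase. With differentiation it rose in control cells and fell in the knockout. Libraries were at 367, 363 and 358 CPM in control, 303, 328 and 300 CPM in overexpressor and 411, 407 and 446 CPM in knockout myoblasts. The overexpressor lay 1.17-fold below control (log2 -0.22 ± 0.06, adjusted p = 0.0101) and the knockout 1.16-fold above it (log2 0.22 ± 0.06, adjusted p = 0.00905, and 0.0572 without knockout replicate C). In myotubes control held 516, 495 and 520 CPM, the overexpressor 433, 412 and 473 CPM and the knockout 257, 242 and 223 CPM. The knockout was thus 2.12-fold below control (log2 -1.09 ± 0.07, adjusted p = 8.84e-11). The overexpressor's difference of -0.22 ± 0.06 (adjusted p = 0.00814) was lost with DESeq2's size factors (0.162) and without overexpressor replicate B (0.0522). Cdon rose 1.41-fold in control (adjusted p = 2.57e-06) and 1.41-fold in the overexpressor (adjusted p = 2.08e-06) and fell 1.75-fold in the knockout (adjusted p = 6.7e-09). The knockout's response differed from control's by -1.30 ± 0.09 (adjusted p = 2.47e-09), and the overexpressor's by 0.01 (95% interval -0.19 to 0.20, adjusted p = 0.977).

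Cdon acts with the coreceptors Boc, Neo1 (neogenin) and Gas1. Boc was at 16.0 ± 0.280 CPM in control, 7.22 ± 0.797 CPM in overexpressor and 14.2 ± 1.11 CPM in knockout myoblasts, and at 18.9 ± 0.812, 4.97 ± 0.279 and 11.4 ± 1.01 CPM in myotubes (SD, n = 3). It was lower than control in the overexpressor at both stages (log2 -1.15 in myoblasts, adjusted p = 1.86e-08, and -1.92 in myotubes, adjusted p = 9.44e-12). In the knockout it was lower in myotubes (log2 -0.72, adjusted p = 2.3e-06), and its myoblast difference was -0.18 (adjusted p = 0.128, but 0.0337 with only these 2 groups in the fit). Neo1 was lower than control in knockout myoblasts and myotubes (log2 -0.71, adjusted p = 3.3e-09, and -0.71, adjusted p = 2.18e-09) and in overexpressor myotubes (log2 -0.78, adjusted p = 6.43e-10), and higher in overexpressor myoblasts (log2 0.23, adjusted p = 0.00234). Gas1 was lower than control in the overexpressor at both stages (log2 -0.73, adjusted p = 1.57e-06, and -1.23, adjusted p = 8.86e-10). Its smaller differences in the knockout were -0.25 in myoblasts (adjusted p = 0.0178) and -0.22 in myotubes (adjusted p = 0.031). The first was lost without control myoblast replicate C (0.0501) or knockout myoblast replicate B (0.0864), and the second with DESeq2's size factors (0.404) and without control myotube replicate A (0.186) or knockout myotube replicate C (0.159). Ntn1, the netrin ligand of neogenin, was at 19.2 ± 1.51 CPM in control, 88.5 ± 13.2 CPM in overexpressor and 79.5 ± 2.31 CPM in knockout myotubes, higher in both clones (log2 2.21, adjusted p = 6.85e-13, and 2.05, adjusted p = 1.44e-12). These coreceptors and the ligand are 4 of the 11 other genes of a Cdon pathway list.

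**Figure D3:**
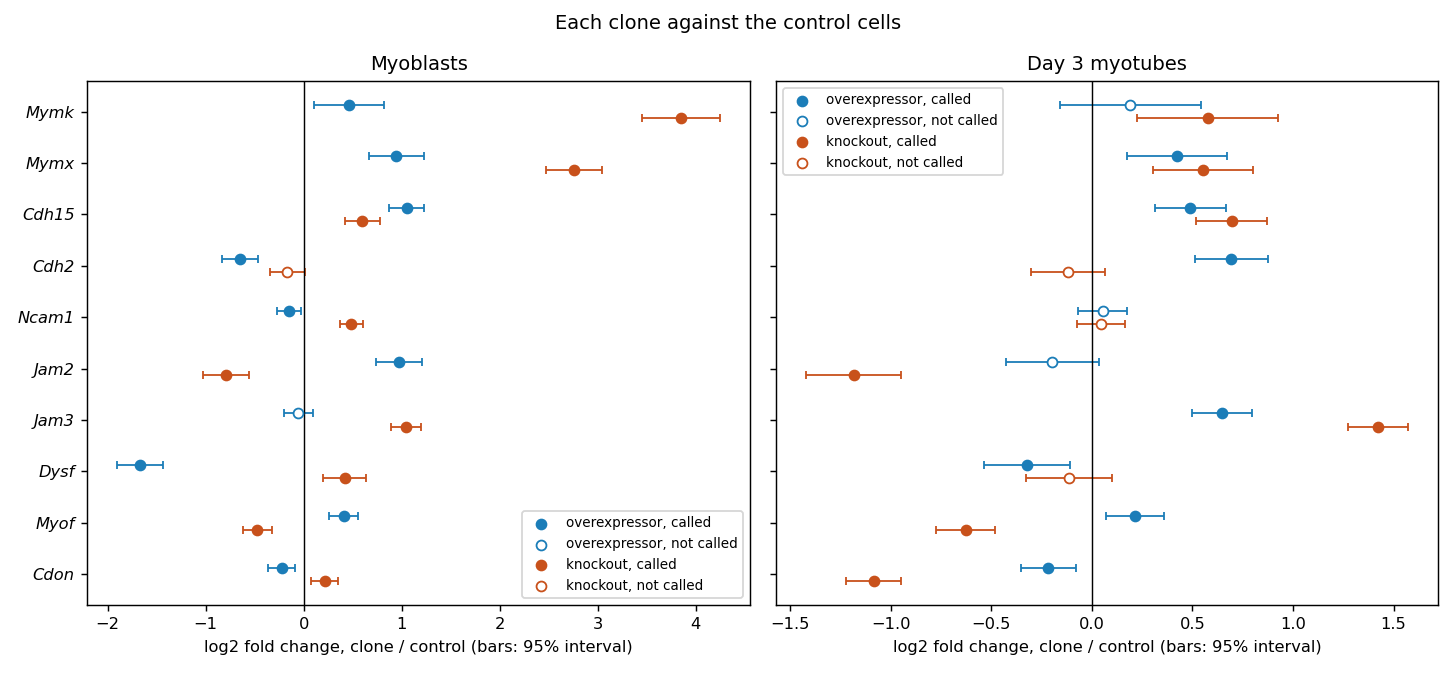
Log2 fold change of each gene in the overexpressor (blue) and the knockout (orange) against control, in myoblasts (left) and day 3 myotubes (right), with 95% intervals (filled circles: adjusted p under 0.05). Mymk at 3.85 and Mymx at 2.76 in knockout myoblasts lie to the right of all other points in that panel.

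Taking the 10 genes comparison by comparison, in overexpressor myoblasts 5 were higher than control (Mymk, Mymx, Cdh15, Jam2 and Myof) and 4 lower (Cdh2, Ncam1, Dysf and Cdon). Of all 17912 genes tested in this contrast, 20.7% were called higher and 19.7% lower. In knockout myoblasts 7 were higher (Mymk, Mymx, Cdh15, Ncam1, Jam3, Dysf and Cdon) and 2 lower (Jam2 and Myof), where 26.4% of all genes were called higher and 26.6% lower. The median log2 fold change of the 10 was 0.18 in the overexpressor and 0.45 in the knockout, against 0.02 and 0.02 over all genes. Because the 10 were chosen with earlier results of these data known, counts and medians here and below describe them only and test no shift. In overexpressor myotubes 5 were higher than control and 2 lower, against a background of 26.2% and 30.9%. None of the 10 remained called lower there with DESeq2's size factors or with scaling by library totals. Scaling by library totals also moved the share of higher genes among all calls in that contrast from 45.8% to 57.8%. Knockout myotubes had 4 higher (Mymk, Mymx, Cdh15 and Jam3) and 3 lower (Jam2, Myof and Cdon), against 31% and 37% of all genes. The medians of the 10 in myotubes were 0.20 for the overexpressor and -0.03 for the knockout, against -0.04 and -0.07 over all genes. The comparisons of both clones with control share the control libraries.

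Set directly against each other, the clones differed in all 10 genes as myoblasts. In the overexpressor 3 were higher than in the knockout (Cdh15, Jam2 and Myof) and 7 lower, where 25.7% of all genes were called higher and 26.9% lower. Mymk was 10.4-fold lower in the overexpressor (log2 -3.38 ± 0.18, adjusted p = 2.46e-10), Dysf 4.25-fold lower (adjusted p = 1.95e-11) and Jam2 3.41-fold higher (adjusted p = 2.64e-10). As myotubes, 4 were higher in the overexpressor (Cdh2, Jam2, Myof and Cdon, at log2 fold changes of 0.81, 0.99, 0.84 and 0.87) and 2 lower (Jam3 at -0.78 and Cdh15 at -0.20), against 30.6% and 29.1% of all genes. The Cdh15 call (adjusted p = 0.0429) was lost without overexpressor replicate B (0.0779) or C (0.29) or knockout replicate B (0.0825) or C (0.179), and with library totals (0.266). Mymk, at -0.38 (adjusted p = 0.0552), passed without overexpressor replicate A (0.0488) or knockout replicate A (0.0443), and Dysf, at -0.21 (adjusted p = 0.0834), passed without knockout replicate A (0.0236).

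From myoblasts to myotubes, 5 of the 10 rose in control (Mymk, Mymx, Ncam1, Dysf and Cdon) and 3 fell (Cdh2, Jam3 and Myof), against 33.9% and 28.8% of all genes. In the overexpressor 7 rose and 3 fell (Cdh15, Jam2 and Myof), against 29.8% and 33% of all genes. In the knockout 5 rose and 4 fell (Cdh2, Jam2, Myof and Cdon), against 29.8% and 35.6%. Mymk, Mymx, Ncam1 and Dysf rose and Myof fell in all 3 lines. With scaling by library totals the share of higher genes among all calls became 37.9% in control cells, where it had been 54.0%, and 34.0% in knockout cells, where it had been 45.5%. Of the differences between responses, 3 of the 10 were positive (Cdh2, Jam3 and Dysf) and 3 negative (Mymx, Cdh15 and Jam2) for the overexpressor minus control, against 16.6% and 22.3% of all genes. For the knockout minus control 1 was positive (Jam3) and 6 negative (Mymk, Mymx, Ncam1, Jam2, Dysf and Cdon), against 20.2% and 29.9%. The median over all genes of the latter difference was itself -0.12, and that of the 10 was -0.42. The share of positive differences among all calls stood at 42.7% in the overexpressor fit and became 53.9% with DESeq2's size factors and 61.0% with library totals, while in the knockout it went to 52.0% with DESeq2's size factors, having been 40.4%. The 2 sets of differences share the control libraries.

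**Figure D4:**
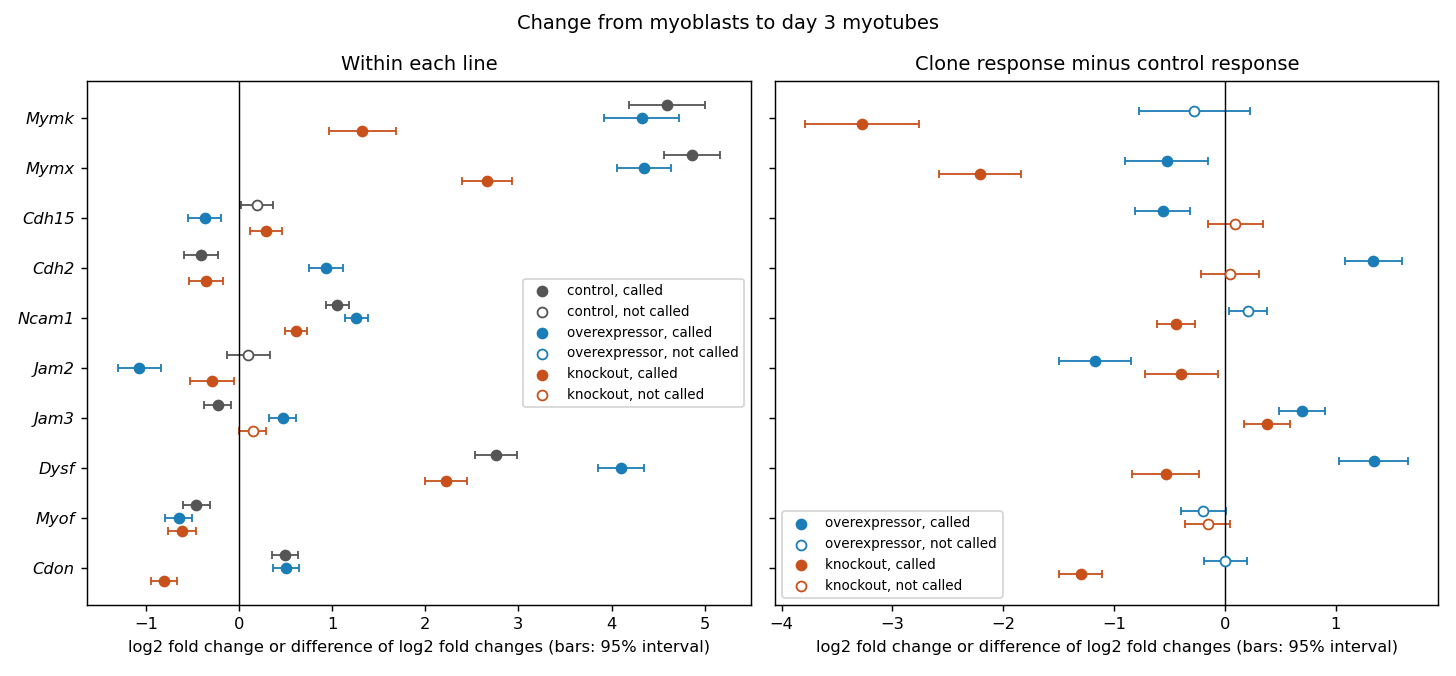
Log2 fold change from myoblasts to day 3 myotubes within each line (left; grey control, blue overexpressor, orange knockout) and the clone's change minus that of control (right), with 95% intervals (filled circles: adjusted p under 0.05). Mymk rose by 4.60 in control and by 1.32 in the knockout, and Cdon rose in control and fell in the knockout.

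Other genes of adhesion and fusion were counted in 5 lists that contain none of the 10. Their counts stand against the shares of all 17912 genes called in the same comparison, which were 20.7% higher and 19.7% lower in overexpressor myoblasts, 26.4% and 26.6% in knockout myoblasts, 26.2% and 30.9% in overexpressor myotubes, 31% and 37% in knockout myotubes, and 33.9% and 28.8% in control differentiation. Of 15 cadherins and catenins, 11 could be tested. In overexpressor myoblasts 3 of them were higher than control and 6 lower, in knockout myoblasts 2 and 2, in overexpressor myotubes 3 and 4, and in knockout myotubes 5 and 3. With differentiation of control cells 4 rose and 5 fell. Cdh11, another mesenchymal cadherin, had 412 to 548 counts in control myoblasts against 0 to 2 in overexpressor and 0 to 9 in knockout myoblasts, and 735 to 1190 counts in control myotubes against 0 to 108 and 0. Catenins bind the inner ends of cadherins and tie them to actin. Beta-catenin (Ctnnb1) fell with differentiation in all 3 lines by 0.68, 0.66 and 0.75 on the log2 scale (adjusted p = 7.14e-09, 1.02e-08 and 2.99e-09 in control, overexpressor and knockout), and p120-catenin (Ctnnd1) fell by 0.96, 1.03 and 0.65 (adjusted p = 1.77e-10, 6e-11 and 5.08e-08). Alpha-catenin (Ctnna1) was lower than control in overexpressor and knockout myoblasts (log2 -0.32, adjusted p = 0.000518, and -0.48, adjusted p = 4.33e-06). The median log2 fold change of the tested list was -0.32 in overexpressor and 0.07 in knockout myoblasts, against 0.02 over all genes in each.

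Of 22 genes in a list of other immunoglobulin-type adhesion molecules and tetraspanins, 18 could be tested. The list also holds Cd36 and Cd164, which are of neither kind. Against control, 10 were higher and 6 lower in overexpressor myoblasts, 5 and 11 in knockout myoblasts, 6 and 10 in overexpressor myotubes and 6 and 7 in knockout myotubes, and with differentiation of control cells 6 rose and 10 fell. F11r, the third junctional adhesion molecule (A), was higher in both clones at both stages. Its levels were 5.26 ± 0.609, 14.5 ± 1.58 and 7.81 ± 0.585 CPM in control, overexpressor and knockout myoblasts (log2 1.47, adjusted p = 9.94e-10, and 0.57, adjusted p = 9.39e-05), and 22.3 ± 1.88, 49.1 ± 0.967 and 30.2 ± 0.778 CPM in myotubes (log2 1.14, adjusted p = 6.22e-09, and 0.44, adjusted p = 0.000424). It rose in control differentiation by 2.08 on the log2 scale (adjusted p = 2.44e-12), where Jam2 had not separated and Jam3 fell. L1cam, a neural adhesion molecule, was at 111 ± 1.10 CPM in overexpressor myoblasts against 5.10 ± 0.0597 CPM in control (log2 4.44, adjusted p = 7.05e-14), and remained higher in overexpressor myotubes (log2 3.77, adjusted p = 5.35e-12). Alcam was lower in the knockout than in control at both stages (log2 -2.78, adjusted p = 6.72e-11, and -2.23, adjusted p = 1.51e-09). Cd36, a scavenger receptor that also takes up fatty acids, stood at 17.1 ± 1.86 CPM in knockout against 0.183 ± 0.0795 CPM in control myoblasts (log2 6.55, adjusted p = 8.5e-08). Mcam was at 6.98 ± 1.60 CPM in overexpressor and 6.97 ± 0.864 CPM in knockout myotubes against 0.380 ± 0.0699 CPM in control (log2 4.20, adjusted p = 1.36e-12, and 4.20, adjusted p = 1.17e-12).

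Of the 11 other genes of the Cdon pathway, 10 could be tested. Against control, 4 were higher and 2 lower in overexpressor myoblasts, none and 4 in knockout myoblasts (3 and 5 with only these groups in the fit), 2 and 6 in overexpressor myotubes and 3 and 6 in knockout myotubes, and in control differentiation 2 rose and 5 fell. Of 31 genes of fusion signalling and actin remodelling, 29 could be tested. In that list 12 were higher and 8 lower in overexpressor myoblasts, 4 and 11 in knockout myoblasts, 6 and 12 in overexpressor myotubes and 7 and 16 in knockout myotubes, with 9 rising and 11 falling in control differentiation. Elmo1, an adaptor of the Rac activator Dock1, had 22 to 34 counts in control myoblasts and 901 to 1336 in control myotubes. It had 0 counts in overexpressor and 0 to 5 in knockout myoblasts, and 3 to 5 and 13 to 32 counts in their myotubes. Of 20 ferlins and membrane repair partners, 18 could be tested, with 11 higher and 1 lower in overexpressor myoblasts, 7 and 7 in knockout myoblasts, 6 and 9 in overexpressor myotubes and 9 and 7 in knockout myotubes. In control differentiation 8 rose and 6 fell. Trim72 (MG53) and Cav3 (caveolin 3), partners of dysferlin in membrane repair, both exceeded control in knockout myoblasts. Trim72 stood at 132 ± 21.9 against 2.92 ± 1.20 CPM (log2 5.48, adjusted p = 3.56e-11), and Cav3 at 25.4 ± 3.37 against 0.180 ± 0.0119 CPM (log2 7.13, adjusted p = 1.89e-13). In control differentiation Cav3 rose to 127 ± 6.03 CPM (log2 9.44, adjusted p = 3.4e-15). The ferlin Fer1l5 had 0 to 9 counts in myoblasts and 4 to 20 in myotubes. The lists were compiled with earlier results of these data known, and no set test was run on them.

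The genes most like each member were sought over the 18 libraries among 10761 genes, by Pearson correlation of log2 CPM. The libraries fall into 6 groups, so these values mostly describe the group means and carry no p. The closest to Mymk were Itgb1bp2 (r = 0.997), Mypn (0.996) and Mybph (0.996), and those closest to Mymx included Padi2 (0.994) and Gprc5c (0.993). For Ncam1 they were Unc13d (0.997), Pstpip1 (0.995) and Camk2a (0.993), for Dysf Pqlc1 (0.982), Palm3 (0.982) and Kcnn1 (0.977), and for Jam3 Rgs16 (0.987), Cpa1 (0.981) and Inha (0.980). Myof was closest to Zfp664 (0.981), Cttnbp2nl (0.980) and Galc (0.980), and Jam2 to Mgam (0.967), Spef1 (0.967) and Ndfip1 (0.967). The lowest maxima were those of Cdh15, with Nckap5l (0.953), Mark4 (0.947) and Acad10 (0.944), of Cdon, with Nfx1 (0.953), Plcb4 (0.952) and Gtf2e2 (0.950), and of Cdh2, with Runx1 (0.906), Tbx18 (0.880) and Gcnt4 (0.875). Among the 10 themselves, Mymx and Ncam1 (0.97), Mymk and Mymx (0.97) and Ncam1 and Dysf (0.97) ran most closely together, and Jam2 and Jam3 (-0.85) and Mymk and Myof (-0.81) most opposed. With a prior count of 0.5 in place of 2, 29 of the 30 nearest genes stayed, but over the 6 group means only 12 did.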

How the data were processed

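PolyA RNA of the 18 libraries was aligned to mm10 with STAR 2.7.9a and counted with featureCounts of Subread 2.0.3, per the submitters' processing notes, which also name FastQC 0.11.7 and DESeq2 1.32.0. The deposited table holds raw read counts per Ensembl gene, not normalized by the authors. The annotation and strand setting are not given in the sources used here. A second table of transformed values was not used. Gene symbols, positions and lengths came from GENCODE M21 (GRCm38), in which 55190 of 55450 IDs were found.

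Counts were filtered by edgeR's filterByExpr, which left 17912 genes, scaled by TMM (factors 0.895 to 1.08) and tested with edgeR 4.0.16 in R 4.3.3 by the quasi-likelihood F test, robust, in 1 fit of all 18 libraries, grouped by line and stage (6 coefficients, 12 residual degrees of freedom). P-values were adjusted by Benjamini-Hochberg over all tested genes in each of 11 contrasts, and called under 0.05. A difference in response is the clone's log2 change from myoblasts to myotubes minus that of control. CPM were computed from the counts with edgeR's cpm on TMM-scaled library sizes. The fit was tested on simulated data. Intervals are at 95%.

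Alternatives were DESeq2's size factors, library totals, no filter, a replicate block, only the groups compared, DESeq2 1.42.0, and leaving out each library. The 10 genes, all named here, and the lists were chosen with earlier results of these data known. List genes are named only where they passed and were among the 2 highest or 2 lowest of their list, or are direct partners of a member. Not every gene that met this rule is named. Cdh11, Elmo1 and Fer1l5 are given as counts because some groups were at 0. Replicate libraries of a group differed by more than counting error (lowest chi-square per degree of freedom 4.72), so none was treated as a duplicate. Overexpressor myotube replicate C lay farthest from its group, at 118 and 112 against A and B, which gave 22.8 with each other. Knockout myotube replicates A and C gave 55.0. Overexpressor myoblast replicate B gave 37.3 and 33.0 against A and C, which gave 8.46 with each other. All of these libraries were kept in the main fit. For each of the 10 genes, the 3 genes most correlated with it are named, except 1 that is not reported here.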

Additional observations from a re-analysis of the deposited data

Results flagged for a closer look

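The response to differentiation differed between a clone and control in 13 tests of these genes, as the test of the difference itself showed (edgeR quasi-likelihood, adjusted over all genes). In the overexpressor the log2 change was larger than in control by 1.34 for Cdh2, 1.34 for Dysf and 0.70 for Jam3, and smaller or more negative by -1.17 for Jam2, -0.56 for Cdh15 and -0.52 for Mymx. In the knockout it differed from control by -3.27 for Mymk, -2.21 for Mymx, -1.30 for Cdon, -0.53 for Dysf, -0.44 for Ncam1, -0.39 for Jam2 and 0.38 for Jam3. Mymk and Mymx were above control in knockout myoblasts (log2 3.85 and 2.76) and remained above it in knockout myotubes (log2 0.58 and 0.55). In overexpressor cells Dysf was below control by -1.67 in myoblasts and by -0.32 in myotubes, the latter not under every alternative. Dysf is the gene whose difference was positive in 1 clone and negative in the other, and a direct test of overexpressor against knockout response was not run. The Mymx difference of the overexpressor and the Jam2 difference of the knockout are those that leaving out single libraries ended. Both were also lost with DESeq2's size factors, library totals, no filter on low counts and DESeq2. The Dysf difference of the knockout was not called with DESeq2 (adjusted p = 0.0518).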

How the results depend on the processing

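Of 110 results (10 genes in 11 comparisons) 88 were called, and 75 of these stayed called, in the same direction, under every alternative run. Single alternatives kept direction and side of the threshold in 97 of 110 results with DESeq2's size factors, 99 with library totals, 104 without the filter, 103 with only the groups compared and 94 with DESeq2. Leaving out 1 library at a time kept 723 of 780. DESeq2's size factors moved the median of all genes by 0.108 (overexpressor) and 0.128 (knockout) in the myotube comparisons with control, and library totals moved it by -0.239 in control differentiation and -0.168 in knockout differentiation.

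In overexpressor myotubes the number of members lower than control, 2, was 0 with DESeq2's size factors, library totals and DESeq2, 1 with only the groups compared, and 1 to 2 when leaving out single libraries. In overexpressor against knockout myotubes the number lower, 2, was 1 with library totals, with no filter and with the replicate block, and 1 to 4 when leaving out single libraries. Uncalled log2 fold changes turned sign in 8 results. In knockout against control myotubes Cdh2 became 0.013 and Dysf 0.020 with DESeq2's size factors, and 0.010 and 0.017 with DESeq2. Ncam1 in overexpressor against knockout myotubes became -0.013 and -0.010, and ranged from -0.010 to 0.046 when leaving out single libraries. With library totals Cdh15 and Jam2 in control differentiation became -0.051 and -0.15, and Jam3 in knockout differentiation -0.022. Leaving out single libraries, the difference in response of Cdon (overexpressor) ranged from -0.016 to 0.064 and that of Cdh2 (knockout) from -0.015 to 0.10. The cause was not tested.

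Among the lists, cadherins and catenins lower in knockout myoblasts numbered 4 in place of 2 with library totals, only the groups compared or DESeq2, and lower in overexpressor myotubes 1 to 2 in place of 4 with other scalings or only the groups compared. Rising cadherins and catenins in control differentiation were 2 in place of 4 without control myotube replicate C. Genes of the list of immunoglobulin-type molecules and tetraspanins lower in overexpressor myotubes numbered 5 to 6 in place of 10 with only the groups compared or library totals. In the comparisons with control and in control differentiation the Cdon pathway counts moved by up to 3, and the 1 gene of the ferlin list lower in overexpressor myoblasts (Cav3, at 0 counts there) was not called with only the groups compared.

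The replicate letters did not pair the libraries: of 45 same-letter pairs of groups 4 had correlated deviations over 0.1 (median -0.016), against 17 of 90 pairs with different letters. Correlations ran from -0.358 to 0.264 for the same letter and from -0.315 to 0.446 for different letters. The highest was that of overexpressor myotube replicate C with knockout myotube replicate A, followed by its 0.360 with overexpressor myoblast replicate B. The fit holds no term for deviations shared across letters, and their source was not tested. With the replicate block 106 of 110 results kept direction and side of the threshold. The exceptions were lost calls: Mymk (0.46, adjusted p = 0.0604) and Ncam1 (-0.15, adjusted p = 0.0657) in overexpressor against control myoblasts, Cdh15 in overexpressor against knockout myotubes (-0.20, adjusted p = 0.064) and Jam2 in the knockout difference in response (-0.39, adjusted p = 0.0625).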
